A study of Mus musculus with 8 samples.

Results

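Complement and coagulation were read in the liver RNA as 48 named genes, taken from the table of normalized read counts by their gene symbols. All 48 had a row among the 21532 genes of the table, and all 48 had the mean normalized count of at least 10 that the test required. By the cell that is known to make them, 19 were hepatocyte-made complement genes, 21 were hepatocyte-made coagulation genes, 7 were complement components or receptors of macrophages, and 1, *Cfd*, is made by fat cells. The livers came from db/db males, whose leptin receptor does not function and who are therefore obese and diabetic. The AF1 peptide group (4 mice) received a synthetic ERα-derived peptide joined to a TAT sequence for entry into cells, injected retro-orbitally at 5 mg/kg body weight. Dosing began at an age of 8 weeks and lasted 5 weeks with 2 doses a week, and the control group (4 mice) received a control peptide by the same schedule. Every mouse of both groups carried the db/db genotype, so no lean liver was compared, and each mouse gave 1 library of frozen liver.

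Complement is a cascade of blood proteases that tags and lyses microbes and clears debris. Recognition proteins such as C1q and the mannose-binding lectins switch on proteases, these build the convertases that cut C3, and the terminal components assemble a pore in the target membrane. Coagulation is a parallel cascade in which tissue factor with factor VII, or the contact system, leads to thrombin, and thrombin turns fibrinogen into a fibrin clot that plasmin later dissolves. Hepatocytes secrete most of these proteins into the blood. C1q, ficolin A and properdin come mainly from macrophages, which in the liver are the Kupffer cells. In bulk liver RNA, fewer cells of a type and less RNA per cell cannot be told apart.

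A library held 23031880 to 45117528 reads, and 37 of the 48 genes had a mean above 1000 normalized counts, so that counting error mattered for the 3 genes of lowest level. In AF1 peptide replicate 1 the receptors *C3ar1* and *C5ar1* and *Cfd* rested on 15, 8 and 5 reads. This mouse stood apart from the other 7. With the deposited scaling it was the highest of the 8 mice in 25.9% and the lowest in 23.4% of the 15989 genes tested. Each other mouse was the highest in 6.33 to 15.5%. These shares depended on the scaling. With equal totals it was the highest in 32.7% and the lowest in 14.5%. Control replicate 4 was then the highest in 31.5% and AF1 peptide replicate 2 the lowest in 34.8%. With equal totals outside the mitochondrial genes, AF1 peptide replicate 1 was the highest in 21.2% and the lowest in 26.3%, and AF1 peptide replicate 3 the highest in 23.2%. The mitochondrial genes of AF1 peptide replicate 1 took 20.8% of reads, against 22.4 to 37.8% in the other 7 mice. The main results are therefore also given without this mouse.

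Promoters are shown for 5 genes on which the results turn, namely the neighbouring *C8a* and *C8b*, whose RNAs did not move together, *C3*, and *C1qb* and *C1qc*, whose RNAs did. Each window runs from 250 bases before to 50 bases after the annotated start (RefSeq, GRCm38.p6), and is written 5′ to 3′ on the strand of the gene. Capitals mark letters of a motif found on either strand, which for a match on the opposite strand are its reverse complement. The motifs were TTNNGCAA for C/EBP and GAGGAAGT for PU.1, and they shared no base in these windows.
*C8a* (chr4:104876349-104876648, minus strand): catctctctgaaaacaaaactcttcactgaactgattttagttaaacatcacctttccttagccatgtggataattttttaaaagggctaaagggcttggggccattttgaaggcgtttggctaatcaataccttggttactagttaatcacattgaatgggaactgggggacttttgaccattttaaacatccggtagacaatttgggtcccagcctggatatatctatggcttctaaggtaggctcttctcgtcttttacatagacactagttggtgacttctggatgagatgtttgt
*C8b* (chr4:104766067-104766366, plus strand): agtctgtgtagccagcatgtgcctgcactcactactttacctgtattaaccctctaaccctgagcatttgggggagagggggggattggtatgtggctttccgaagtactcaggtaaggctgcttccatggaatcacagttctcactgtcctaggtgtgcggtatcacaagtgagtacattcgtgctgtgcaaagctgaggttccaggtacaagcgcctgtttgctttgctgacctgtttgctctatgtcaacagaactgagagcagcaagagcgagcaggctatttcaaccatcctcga
*C3* (chr17:57228087-57228386, minus strand): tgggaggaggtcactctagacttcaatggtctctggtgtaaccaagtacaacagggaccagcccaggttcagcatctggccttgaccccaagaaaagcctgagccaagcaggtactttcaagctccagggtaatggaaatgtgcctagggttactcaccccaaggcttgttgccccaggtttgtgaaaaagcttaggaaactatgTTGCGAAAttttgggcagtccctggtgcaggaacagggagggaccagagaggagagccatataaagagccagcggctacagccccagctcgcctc
*C1qb* (chr4:136886151-136886450, minus strand): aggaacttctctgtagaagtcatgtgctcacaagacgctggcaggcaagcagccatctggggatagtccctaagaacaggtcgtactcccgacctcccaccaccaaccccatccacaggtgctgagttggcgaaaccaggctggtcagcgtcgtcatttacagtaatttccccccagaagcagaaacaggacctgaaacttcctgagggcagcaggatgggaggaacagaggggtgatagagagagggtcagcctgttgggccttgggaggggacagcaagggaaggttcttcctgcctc
*C1qc* (chr4:136892865-136893164, minus strand): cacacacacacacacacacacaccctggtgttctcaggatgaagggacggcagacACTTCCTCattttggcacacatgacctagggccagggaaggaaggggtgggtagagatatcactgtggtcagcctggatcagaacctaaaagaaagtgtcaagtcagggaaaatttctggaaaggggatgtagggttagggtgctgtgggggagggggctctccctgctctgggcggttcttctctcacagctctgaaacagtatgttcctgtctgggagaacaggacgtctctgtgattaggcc
*C3* held 1 C/EBP match, *C1qc* held 1 PU.1 match, and *C8a*, *C8b* and *C1qb* held neither motif. C/EBP proteins are transcription factors of hepatocytes among other cells, and PU.1 is one of macrophages. Of the 31 hepatocyte-made genes with a promoter in the table, 12 held the C/EBP letters, beside 10.8% of all 27025 promoters of this length. The PU.1 letters were in 0 of these 31 and in 1 of the 6 macrophage-made genes with a promoter, beside 3.28% of all promoters. A match describes the letters and is not a binding site, and a window without one says nothing about the factor.

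The comparison of AF1 peptide with control asked which of these genes differed between the livers. With limma on log2(normalized count + 1), a gene was called at an unadjusted p under 0.05 with a change of more than 1.3-fold. By this rule 1 of the 48 genes, *C8a*, was called, which was 1 gene higher and 0 lower. Of all genes tested, 3.69% were called in either direction and 1.79% were called higher, so that the count among the 48 genes was near or under the background. The groups overlapped in all 48 genes, beside 3.9% of all tested genes in which they did not. The smallest Benjamini-Hochberg adjusted p over all genes in limma was 0.763, so that 0 of all genes and 0 of the 48 had an adjusted p under 0.05. The unadjusted p was under 0.05 for 990 of all genes and for 1 of the 48. On the recovered reads, DESeq2 gave 3 of all genes and 0 of the 48 an adjusted p under 0.05, edgeR gave 0, and the unadjusted p was under 0.05 for 2 (DESeq2) and 1 (edgeR) of the 48.

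The data limited the size of change in most genes. The 95% interval of the fold change lay within 2-fold in both directions for 41 of the 48 genes, and within 1.5-fold for 31. The 7 genes with wider intervals were *C3*, *C8b*, *C1qb*, *C1qc*, *C3ar1*, *C5ar1* and *Cfd*. Without AF1 peptide replicate 1, limma called 3 of the 48 genes, *C8a* (higher) and *Fga* and *Fgg* (lower), beside 5.93% of all tested genes.

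**Figure D1:**
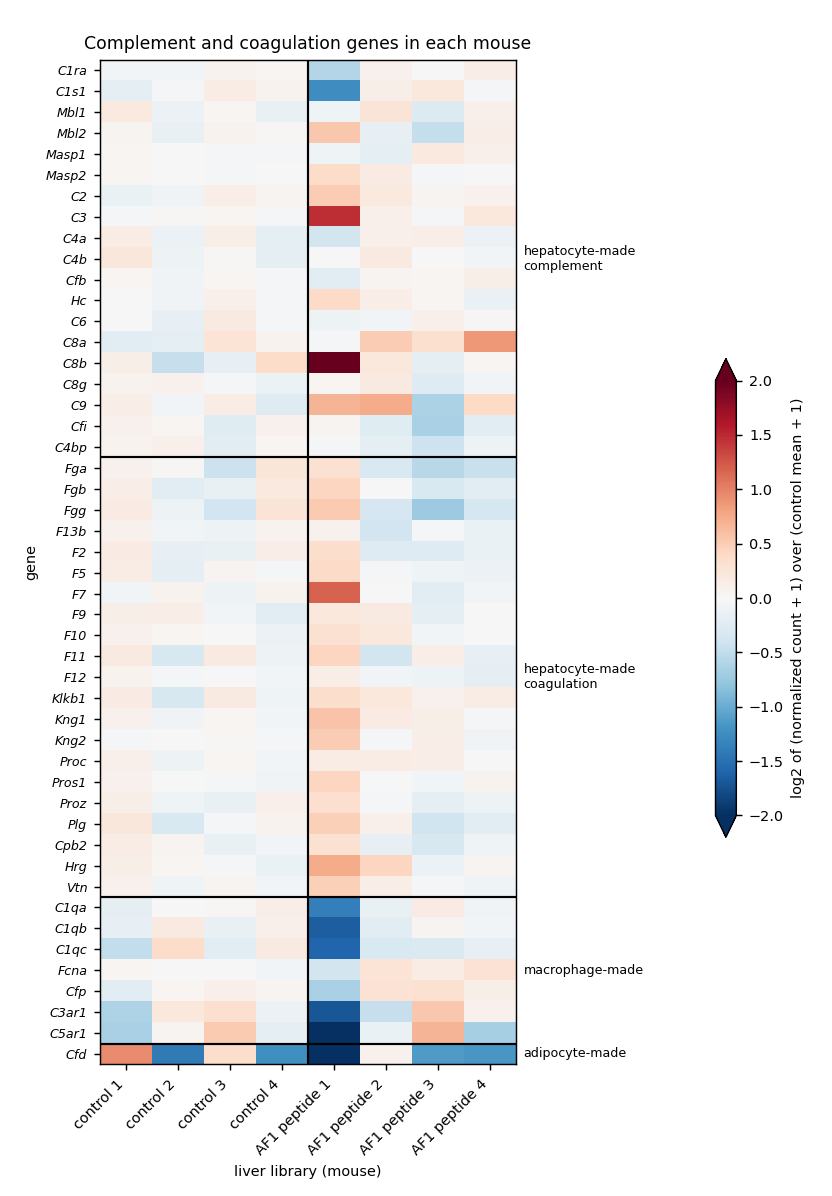
Heat map of the 48 genes (rows, by the cell that makes them) in the 8 mice (columns). Colour is log2 of the normalized count plus 1 over the control mean plus 1, red above and blue below the control mean, and values beyond 2 take the end colour. AF1 peptide replicate 1 is red in all 21 coagulation genes and blue in all 7 macrophage-made genes, whereas the other mice stay near the control mean in most rows.

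The mouse that stood apart carried most of the spread. AF1 peptide replicate 1 had the highest level of the 8 mice in 27 of the 48 genes (25.9% of all genes tested) and the lowest level in 12 (23.4% of all). It was the highest in 21 of the 21 coagulation genes, the lowest in 7 of the 7 macrophage-made genes, and the highest in 6 and the lowest in 4 of the 19 hepatocyte-made complement genes. Of 26 other tested coagulation regulators and receptors, outside the 48 genes, it was the highest in 6 and the lowest in 7. With the libraries scaled to equal totals the coagulation count was 19 of 21, beside 32.7% of all genes highest in this mouse. With equal totals outside the mitochondrial genes it was 18 of 21, beside 21.2%. The macrophage count stayed at 7 of 7 under both, beside 14.5% and 26.3% of all genes lowest in this mouse. Relative to the control mean, its level was 1.06-fold (*F13b*) to 2.27-fold (*F7*) in the coagulation genes, with a median of 1.3-fold. In the macrophage-made genes it was 0.218-fold (*C5ar1*) to 0.776-fold (*Fcna*), with a median of 0.332-fold. The median coefficient of variation over the 48 genes was 9.51% among control mice and 19.3% among AF1 peptide-treated mice, and it was 8.79% among AF1 peptide replicates 2 to 4. Over all tested genes these values were 13.3%, 18.1% and 13.03%.

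Summed over the 21 coagulation genes, control mice had 340043, 292394, 302081 and 321787 normalized counts and AF1 peptide-treated mice had 429231, 324105, 287693 and 289363. The 19 hepatocyte-made complement genes summed to 175059 to 186716 in control mice, to 296174 in AF1 peptide replicate 1 and to 172726 to 196401 in the other 3 treated mice. The 7 macrophage-made genes summed to 3872 to 4964 in control mice, 1974 in AF1 peptide replicate 1 and 4331 to 4840 in the other 3. In each class the 3 other treated mice lay close to or within the control range. The 48 genes together made up 1.87 to 2.10% of the counts outside mitochondrial genes in control mice, 2.80% in AF1 peptide replicate 1 and 1.95 to 2.01% in the other 3 treated mice.

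**Figure D2:**
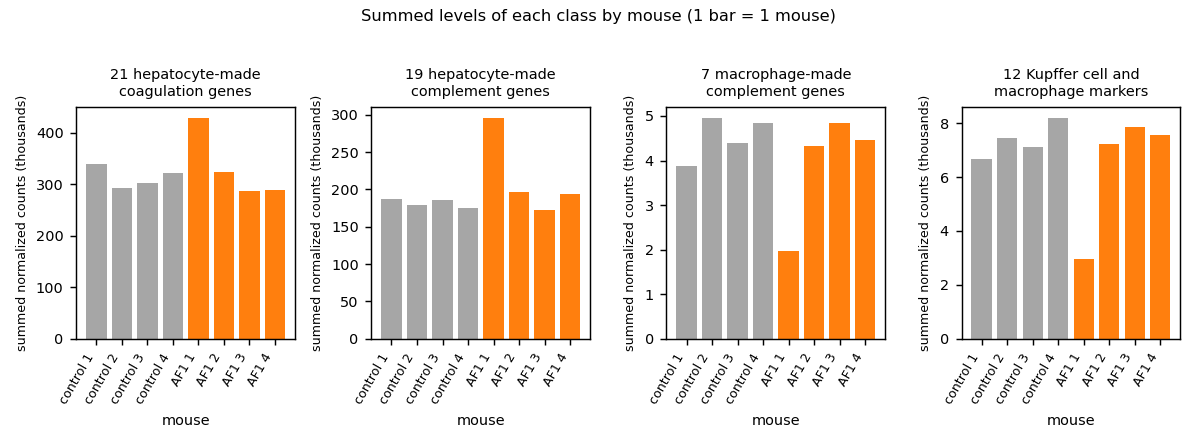
Bars give the summed normalized counts, divided by 1000 and with the axis from 0, of 3 classes of genes and of the Kupffer cell and macrophage markers, 1 bar for each mouse, grey for control and orange for AF1 peptide. AF1 peptide replicate 1 has the tallest bar in both hepatocyte-made classes (429231 and 296174) and the shortest in the macrophage-made genes (1974) and the macrophage markers (2976).

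The median log2 fold change between the groups was 0.01 in the 19 hepatocyte-made complement genes, of which 12 were above and 7 below 0. It was 0.05 in the 21 coagulation genes (14 above, 7 below 0) and −0.35 in the 7 macrophage-made genes (2 above, 5 below 0), beside −0.01 over all 15989 genes. Without AF1 peptide replicate 1 the medians were 0.05, −0.09 and 0.02. The coagulation and macrophage medians thus changed sign with 1 mouse. Scaling to equal totals moved the median of all genes to −0.10, that of the complement genes to −0.08 and that of the coagulation genes to −0.04, which is the shift that this scaling gives to all genes alike.

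The proteases C1r and C1s are carried by C1q and start the classical pathway, and both are made by hepatocytes. *C1s1* was 8363, 9358, 10571 and 10005 normalized counts in control mice and 4053, 10422, 11089 and 9333 in AF1 peptide-treated mice. In AF1 peptide replicate 1 it was at 0.423-fold of the control mean, and the other 3 treated mice lay within or just above the control range. The log2 fold change was −0.23 ± 0.28 (SE) with all mice (limma, unadjusted p = 0.426) and 0.10 ± 0.12 without that mouse (unadjusted p = 0.387). *C1ra* was also lowest in this mouse, at 2012, with 2902 to 3300 in the other 7. By its sequence, 21.9% of the 50-base words of *C1s1* are shared with *C1s2* and 50.8% of those of *C1ra* with other genes, most with *C1rb*, so that counts may be split within these pairs.

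The lectin pathway reads sugars through mannose-binding lectins and acts through the MASP proteases. *Mbl2* was 6852, 5998, 6928 and 6721 in control mice and 9580, 5883, 4764 and 7288 in treated mice, and *Mbl1* was 4003, 3195, 3593 and 3123 against 3265, 4168, 2865 and 3733. The groups overlapped in both lectins, and the log2 fold changes were 0.01 ± 0.19 (SE) for *Mbl2* and 0.01 ± 0.13 for *Mbl1*. The ratio of *Mbl2* to *Mbl1* was 1.71 to 2.15 in control mice, 2.93 in AF1 peptide replicate 1 and 1.41 to 1.95 in the other treated mice. *Masp2*, a protease that cleaves C4 and C2, was 3053 to 3224 in control mice and 4022, 3489, 3059 and 3153 in treated mice, and led the lectin genes with a log2 fold change of 0.13 ± 0.10 (SE) (limma, unadjusted p = 0.25). *Masp1* lay between 1271 and 1676 in all 8 mice.

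C3 is the central component that every activation route cleaves. *C3* was 62946, 65228, 66160 and 62514 in control mice and 177885, 69018, 62331 and 73980 in AF1 peptide-treated mice. The control mice averaged 64212 ± 1762 (SD, n = 4), and AF1 peptide replicate 1 was 2.40-fold above the next highest mouse. The log2 fold change was 0.43 ± 0.31 (SE; limma, unadjusted p = 0.189, adjusted p = 0.792), and 0.09 ± 0.15 without that mouse. DESeq2 gave *C3* an unadjusted p of 0.0482 with all mice (adjusted p = 0.787). *Cfb*, the protease subunit of the alternative convertase, did not share this peak. The ratio of *C3* to *Cfb* was 2.93 to 3.28 in control mice, 9.89 in AF1 peptide replicate 1 and 2.91 to 3.25 in the other treated mice.

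C4 supplies the other subunit of the classical convertase, and the mouse has another copy, C4a or sex-limited protein. *C4b* was 31837, 25412, 27744 and 23789 in control mice and 27166, 30747, 27303 and 26259 in treated mice. *C4a* was 1616, 1343, 1587 and 1281 against 1132, 1562, 1604 and 1348. The log2 fold changes were 0.04 ± 0.14 (SE) and −0.05 ± 0.13, and 17.0 to 24.0 counts of *C4b* stood against 1 of *C4a* in the 8 mice. The copies share 34.6% (*C4b*) and 30.6% (*C4a*) of their 50-base words, so the split between them is uncertain. *C2* and *Cfb*, neighbours on the chromosome, overlap the readthrough gene *Gm20547* on the same strand in the annotation. With it *Cfb* shares 73.0% and *C2* 38.7% of their 50-base words, so that their counts, and the ratio of *C3* to *Cfb*, are uncertain to that extent. *C2*, the protease subunit of the classical convertase, was 1389, 1440, 1670 and 1576 in control mice and 2170, 1731, 1569 and 1619 in treated mice. Like *C3* it was highest in AF1 peptide replicate 1, at 1.43-fold of the control mean, and its log2 fold change was 0.21. *Cfb* lay between 17983 and 22751 in all 8 mice.

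The terminal pathway builds the membrane attack complex from C5 to C9, with C5 named *Hc* in the mouse. C8 has an alpha, a beta and a gamma chain, encoded by *C8a*, *C8b* and *C8g*. *C8a* was 1115, 1131, 1561 and 1353 in control mice and 1259, 1837, 1606 and 2345 in AF1 peptide-treated mice, means of 1290 ± 211 (SD, n = 4) and 1762 ± 456 (SD, n = 4). In 3 of the 4 treated mice it was above every control mouse, and AF1 peptide replicate 1 lay inside the control range. The log2 fold change was 0.43 ± 0.18 (SE), with a 95% interval from 0.02 to 0.83 (limma, unadjusted p = 0.0414, adjusted p = 0.763). Without AF1 peptide replicate 1 it was 0.58 ± 0.15 (limma, unadjusted p = 0.00262, adjusted p = 0.452). The call was lost when control replicate 1, 2 or 4 or AF1 peptide replicate 2, 3 or 4 was left out, with log2 fold changes of 0.28 to 0.46, and with equal totals (0.34), equal totals outside mitochondrial genes (0.42) or limma without its variance trend (0.43). An annotated gene, *Gm17662*, overlaps *C8a* on the opposite strand, and the use of strand in counting is not given in the sources used here, so reads of the pair cannot be told apart.

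*C8b* was 207, 138, 169 and 246 in control mice and 1347, 219, 168 and 195 in AF1 peptide-treated mice. The level in AF1 peptide replicate 1 was 5.47-fold above the next highest mouse, and the other 3 treated mice lay within the control range. The log2 fold change was 0.75 ± 0.56 (SE; limma, unadjusted p = 0.207) with all mice and 0.06 ± 0.19 without that mouse. *C8g* was 11816 to 13651 in control mice and 10754 to 14612 in treated mice, and its log2 fold change was −0.02 ± 0.12 (SE). The mouse with the peak in *C8b* was thus not the mouse with the highest *C8a*, and the ratio of *C8a* to *C8b* was 5.39 to 9.26 in control mice, 0.935 in AF1 peptide replicate 1 and 8.38 to 12.04 in the other treated mice. Per coding length, *C8g* stood 29.7 ± 6.19 (SD, n = 4) times above *C8a* and *C8a* 7.11 ± 1.95 (SD, n = 4) times above *C8b* in control mice. Per 1000 bases of the whole transcript, the control means were 11203 for *C8g*, 357 for *C8a* and 84.8 for *C8b*.

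*C9*, whose protein forms the ring of the pore, was 4764, 4174, 4846 and 3635 in control mice and 6983, 7288, 2806 and 5747 in treated mice. Its 3 high treated mice were above every control mouse and replicate 3 was below every one, and the log2 fold change was 0.31 ± 0.27 (SE; limma, unadjusted p = 0.275). Without AF1 peptide replicate 3 it was 0.62 and was called, in a fit that called 4.35% of all genes. *Hc* had a log2 fold change of 0.10, and *C6* lay between 299 and 379 in all 8 mice.

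Factor I and C4b-binding protein inactivate C3b and C4b. *Cfi* was 7325, 7083, 5825 and 7313 in control mice and 7181, 5795, 4409 and 5892 in treated mice. AF1 peptide replicates 2 and 3 were below every control mouse, and the log2 fold change was −0.26 ± 0.15 (SE; limma, unadjusted p = 0.117), or −0.37 ± 0.13 without AF1 peptide replicate 1 (unadjusted p = 0.0167), just inside the 1.3-fold limit. *C4bp* was 4832 to 6082 in control mice and 4284 to 5563 in treated mice.

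**Figure D3:**
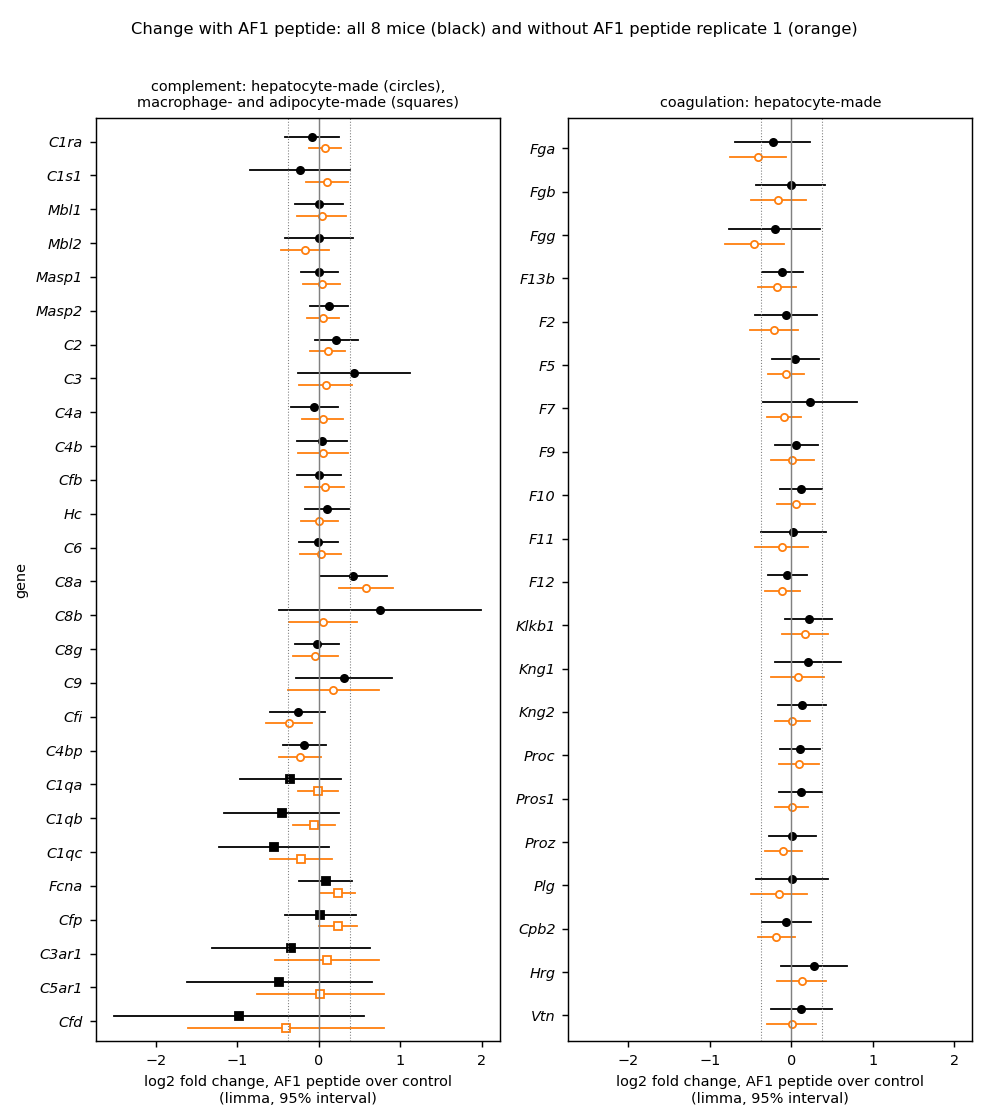
Points give the log2 fold change of AF1 peptide over control for the 48 genes with 95% intervals from limma, black for all 8 mice and orange for the fit without AF1 peptide replicate 1, and dotted lines mark 1.3-fold. The interval of *C8a* excludes 0 in both fits, the intervals of *C8b*, *C3* and the C1q chains shrink toward 0 without that mouse, and those of *Fga* and *Fgg* move below 0.

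C1q, the recognition protein of the classical pathway, has an A, a B and a C chain, and its 3 genes lie side by side. *C1qa* was 1145, 1310, 1318 and 1415 in control mice and 502, 1174, 1461 and 1240 in AF1 peptide-treated mice. *C1qb* was 936, 1195, 949 and 1136 against 337, 915, 1099 and 1010. *C1qc* was 633, 1151, 769 and 1009 against 296, 721, 727 and 793. In each chain AF1 peptide replicate 1 was the lowest of all mice, at 0.387-fold, 0.320-fold and 0.332-fold of the control mean, and the other treated mice lay within the control range or, for *C1qa* in replicate 3 and *C1qb* in replicate 2, just outside it. The log2 fold changes were −0.35 ± 0.28, −0.45 ± 0.32 and −0.55 ± 0.30 (SE), with unadjusted p of 0.239, 0.184 and 0.1 in limma. Without that mouse they were −0.01 ± 0.11, −0.06 ± 0.12 and −0.22 ± 0.18. The chains kept close ratios in all 8 mice, with 1.10 to 1.49 counts of *C1qa* and 0.661 to 0.964 counts of *C1qc* for 1 of *C1qb*, and AF1 peptide replicate 1 was at 1.49 and 0.878.

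Ficolin A binds sugars on microbes, and properdin steadies the alternative convertase. *Fcna* was 396 to 425 in control mice and 320, 499, 456 and 502 in treated mice, and *Cfp* was 681 to 839 against 497, 955, 971 and 849. In both genes AF1 peptide replicate 1 was below every control mouse and the other 3 treated mice were above every control mouse. The log2 fold changes were 0.08 ± 0.14 (*Fcna*) and 0.02 ± 0.20 (*Cfp*) (SE) with all mice. Without AF1 peptide replicate 1 they were 0.23 ± 0.10 and 0.24 ± 0.11 (limma, unadjusted p = 0.0346 and 0.0433, adjusted p = 0.485 and 0.491). Neither gene was called in either fit, as the changes stayed inside the 1.3-fold limit. *C5ar1*, a receptor for the fragment C5a, was 21.4, 35.5, 49.7 and 30.1 in control mice and 7.47, 31.0, 55.2 and 21.1 in treated mice, and *C3ar1* was 31.3 to 61.6 against 14.0, 34.7, 70.8 and 51.4. *C5ar1* had a log2 fold change of −0.48 ± 0.51 (SE) with all mice and 0.02 ± 0.35 without AF1 peptide replicate 1.

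Markers of Kupffer cells and macrophages moved with these genes. Of the 12 markers, 11 were lowest of the 8 mice in AF1 peptide replicate 1, and the median log2 fold change of the list was −0.30 (2 above and 10 below 0), or 0.05 without that mouse. The 12 markers summed to 6654 to 8208 normalized counts in control mice, 2976 in AF1 peptide replicate 1 and 7242 to 7867 in the other treated mice. The Kupffer cell markers *Clec4f*, *Cd5l* and *Vsig4* were at 1091, 526 and 167 in that mouse, and no marker of the list was at 0. *Adgre1*, a macrophage surface receptor, was the 1 of the 12 markers called, lower in treated mice, beside 3.69% of all genes. It was 45.4 to 85.4 in control mice and 27.1, 45.7, 50.3 and 48.7 in treated mice. Its log2 fold change was −0.66 (limma, unadjusted p = 0.0339, adjusted p = 0.763), and −0.45 with no call without AF1 peptide replicate 1. That fit called a different marker of the 12, *Cd163*, beside 5.93% of all genes, with 7 markers above and 5 below 0. Summed markers of several other cell types were also lowest in AF1 peptide replicate 1. Those of neutrophils were at 71.9, against 156 to 283 in the other 7 mice, and those of stellate cells at 9809 against 10568 to 16922. Red blood cell markers were at 27375 against 34468 to 123879, and sinusoidal endothelial markers at 7901 against 8178 to 10285. Single markers were mixed, and 5 of 10 stellate and 4 of 10 endothelial markers were lowest in this mouse, with the endothelial *Stab2* highest. Summed platelet and megakaryocyte markers were instead highest in this mouse, at 454.5 against 334.2 to 453.1 in the other 7. Single platelet markers of this mouse went both ways. Of the 5 tested, *Itga2b* and *Gp1ba* were the highest of the 8 mice there, and *Pf4* and *Ppbp* the lowest. The 9 markers of monocytes and recruited macrophages summed to 1942 to 3602 in control mice, 1128 in AF1 peptide replicate 1 and 1748 to 3241 in the others. The part of macrophage number in the macrophage-made genes was not tested.

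*Cfd* encodes factor D, the protease that cleaves factor B, and fat tissue is its known source. It was 89.8, 16.7, 59.5 and 19.3 in control mice and 4.67, 49.3, 20.6 and 20.2 in treated mice, and it spread over a wide range in both groups. The log2 fold change was −0.98 ± 0.69 (SE; limma, unadjusted p = 0.186), and −0.40 ± 0.55 without AF1 peptide replicate 1. Of 8 fat cell markers, 5 had a row, and *Adipoq*, *Plin1* and *Lep* were not analysed here. The 5 summed to 1813 to 3946 in control mice, 1096 in AF1 peptide replicate 1 and 1997 to 2676 in the other treated mice, but single markers of this mouse went both ways. *Cidea* (38.3) and *Aqp7* (19.6) were the lowest of the 8 mice there, and *Slc2a4* (286) and *Adrb3* (746) the highest. The part of fat cells in *Cfd* was not tested.

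**Figure D4:**
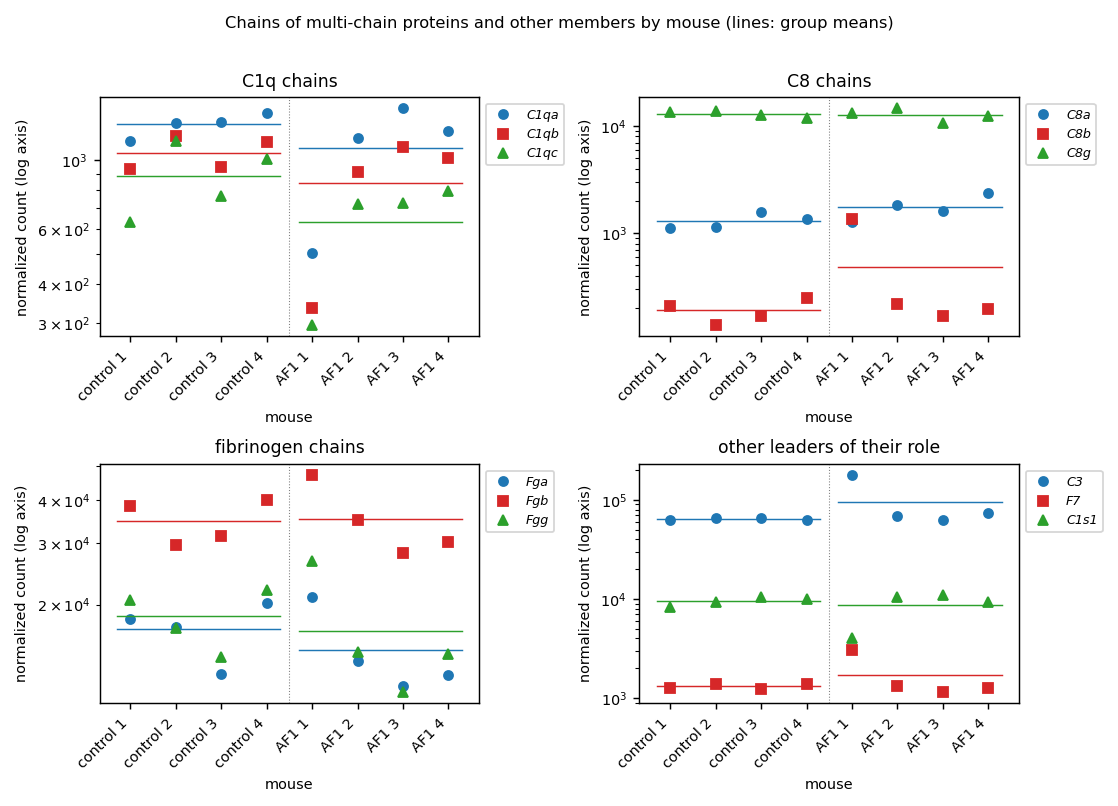
Each point is the normalized count (log axis) of 1 mouse for the chains of C1q, C8 and fibrinogen and for *C3*, *F7* and *C1s1*, with horizontal lines at the group means. AF1 peptide replicate 1 has the lowest C1q chains (296 to 502), a *C8b* of 1347 where the other 7 mice have 138 to 246, and the highest *C3*, *F7* and fibrinogen chains.

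Fibrinogen is built from Aα, Bβ and γ chains, and *Fga*, *Fgb* and *Fgg* lie in 1 cluster. *Fga* was 18170, 17259, 12620 and 20199 in control mice and 21100, 13799, 11647 and 12519 in AF1 peptide-treated mice. *Fgb* was 38350, 29740, 31452 and 39958 against 47082, 34964, 28178 and 30254. *Fgg* was 20678, 17182, 14148 and 22089 against 26717, 14606, 11206 and 14467. AF1 peptide replicate 1 was the highest and AF1 peptide replicate 3 the lowest of all mice in each chain, and control replicates 1 and 4 were above control replicates 2 and 3 in each. The log2 fold changes were −0.23 ± 0.21, −0.01 ± 0.19 and −0.20 ± 0.25 (SE), with no call. Without AF1 peptide replicate 1 they were −0.41 ± 0.16, −0.16 ± 0.15 and −0.45 ± 0.17, and *Fga* and *Fgg* were then called lower (limma, unadjusted p = 0.0222 and 0.0193, adjusted p = 0.476 and 0.473). The chains held together within mice, with 0.962 to 1.27 counts of *Fgg* for 1 of *Fga* and 0.395 to 0.580 counts of *Fga* for 1 of *Fgb*. Per coding length the control means were 7199 for *Fga*, 13907 for *Fgg* and 24118 for *Fgb* (normalized counts per 1000 coding bases). Per 1000 bases of the whole transcript they were 6595, 10640 and 9154, so that the order of *Fgg* and *Fgb* depended on the length used.

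Prothrombin and factors V, VII, IX and X carry the cascade to thrombin. *F7*, whose product binds tissue factor to start clotting, led this group. It was 1277, 1399, 1245 and 1399 in control mice and 3024, 1321, 1147 and 1278 in treated mice, so that AF1 peptide replicate 1 was 2.16-fold above the next highest mouse. The log2 fold change was 0.23 ± 0.26 (SE; limma, unadjusted p = 0.399), and −0.09 ± 0.10 without that mouse. Its neighbours *F10* and *Proz* stood less far above the other mice in this mouse, with 11588 against 8609 to 10750 for *F10* and 5441 against 3768 to 4637 for *Proz*. The ratio of *F7* to *F10* was 0.130 to 0.162 in control mice, 0.261 in AF1 peptide replicate 1 and 0.123 to 0.136 in the other treated mice. *F2*, *F5*, *F9* and *F10* had log2 fold changes from −0.07 to 0.12.

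The contact system starts clotting on charged surfaces and releases bradykinin from kininogen. *Klkb1*, which encodes plasma prekallikrein, was 7336, 5274, 7443 and 6205 in control mice and 8374, 7611, 6933 and 7301 in treated mice. Its log2 fold change of 0.21 ± 0.13 (SE) led the group (limma, unadjusted p = 0.133), and 42.7% of its 50-base words are shared, nearly all with the overlapping annotated gene *Gm45753*. *Kng1* was 67307, 60079, 64878 and 61181 in control mice and 93628, 70909, 68793 and 61443 in treated mice, and *Kng2* was 8083 to 8363 against 11635, 8066, 9020 and 7824. Both kininogens were highest in AF1 peptide replicate 1, and the log2 fold changes were 0.20 ± 0.18 and 0.13 ± 0.13 (SE). The copies kept a ratio of 7.24 to 8.79 in the 8 mice, and they share 17.2% (*Kng1*) and 19.4% (*Kng2*) of their words. *Klkb1* and its neighbour *F11* kept a ratio of 6.09 to 6.24 in control mice and 5.82 to 9.22 in treated mice.

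Protein C, its cofactor protein S and protein Z are vitamin K-dependent proteins that restrain clotting. *Pros1* led them and was 816 to 909 in control mice and 1153, 853, 820 and 898 in treated mice (log2 fold change 0.11 ± 0.12, SE), and the changes of *Proc* and *Proz* were 0.11 and 0.01. Among genes of fibrinolysis and its regulators, *Hrg*, which encodes a histidine-rich glycoprotein that binds plasminogen and heparin, led the group. It was 16294, 15547, 14661 and 13783 in control mice and 25106, 20261, 13933 and 15622 in treated mice, with a log2 fold change of 0.28 ± 0.18 (SE; limma, unadjusted p = 0.154) and 0.12 ± 0.14 without AF1 peptide replicate 1. *Plg*, *Cpb2* and *Vtn* had changes of −0.06 to 0.12.

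Levels between genes were compared per 1000 bases of coding sequence in control mice, for the 47 genes with a coding length. *Kng1* (31904), *Vtn* (31176), *Fgb* (24118) and *C8g* (21155) had the highest normalized counts per 1000 coding bases. Per 1000 bases of the whole transcript, *Kng1* (28098) and *Vtn* (25688) again led, followed by *F2* (14097), *C3* (12502) and *C8g* (11203), with *Fgb* at 9154. Per coding length, the coagulation genes ranged from 421 (*Pros1*) to 31904, with a median of 6299, the hepatocyte-made complement genes from 107 (*C8b*) to 21155, with a median of 3192, and the macrophage-made genes from 32.4 (*C5ar1*) to 1757 (*C1qa*), with a median of 562. The medians per transcript length were 4905, 1996 and 479, in the same order of classes. In control mice *C1qa* was at 1757, *C1qb* at 1383 and *C1qc* at 1202 per 1000 coding bases. On both scales *C8b* was the lowest of the hepatocyte-made genes, below *C6*, which was at 120 per 1000 coding bases.

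Other genes of the pathways were read from fixed lists. Among 19 tested complement regulators, receptors and related genes, 0 were called, and the list's median log2 fold change was −0.16 (5 above and 14 below 0). The unadjusted p was under 0.05 for 1 of them in limma and for 0 in DESeq2. That gene was *Colec12*, a scavenger lectin, with a change of −0.27 (limma, unadjusted p = 0.0436). Without AF1 peptide replicate 1 limma called 1 of the 19, *Cfhr2*, at −0.52. Of 26 tested coagulation regulators and receptors, 1 was called, and the median was −0.12 (7 above and 19 below 0). *Thbd*, which encodes thrombomodulin of the endothelium, was 46.1, 45.3, 36.8 and 46.9 in control mice and 25.2, 31.0, 27.2 and 35.8 in treated mice. The groups did not overlap in *Thbd*, with a log2 fold change of −0.54 ± 0.20 (SE; limma, unadjusted p = 0.0217, adjusted p = 0.763) and −0.47 without AF1 peptide replicate 1. *Serpinc1*, which encodes antithrombin, was 50220 to 56744 in control mice and 44906 to 54470 in treated mice.

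Of 13 liver transcription factor genes and of 18 acute phase genes, 0 were called, with medians of −0.03 and 0.05. *Hnf4a* and *Cebpa*, which encode factors of hepatocyte genes, had changes of 0.03 and −0.12. By unadjusted p under 0.05, limma and DESeq2 also had 0 of each list with all mice. Without AF1 peptide replicate 1, limma had 4 of the 13 (*Cebpb*, *Foxa2*, *Nr1h4* and *Nr5a2*) and 2 of the 18 (*Crp* and *Apcs*) under 0.05. This stood beside 1608 of the 15989 genes tested, and 0 of either list were called. Among the acute phase genes, AF1 peptide replicate 1 was the highest mouse in 5 and the lowest in 4 of the 18. The livers expressed hepatocyte markers throughout, and the 10 markers summed to 2771250 to 2915870 normalized counts in control mice, 2142300 in AF1 peptide replicate 1 and 2435520 to 2896030 in the other treated mice. In AF1 peptide replicate 1 *Alb* (albumin) was the lowest of the 8 mice, at 1224160, while *Tat*, *Cps1* and *Ass1*, which encode enzymes of amino acid and urea metabolism, were the highest, at 68707, 34576 and 188675. The part of these shifts in the complement and coagulation genes was not tested.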

How the data were processed

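Liver RNA of 4 control and 4 AF1 peptide-treated male db/db mice was isolated with TRIzol, and stranded mRNA libraries were prepared. Per the labels and the study's methods, the authors used Trim Galore 0.6.7 for trimming, HISAT2 for alignment (build mm39 in the submitters' processing notes), SAMtools 1.17 for sorting and GenomicAlignments for counts per gene. They deposited normalized counts, a signal equal to whole reads divided by 1 size factor per library. All 172256 values (100%) gave whole reads within 0.01 reads. The use of strand and the treatment of shared reads are not given in the sources used here.

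Groups and replicate numbers came from the titles. The 48 members and the other lists were chosen with earlier results of these data known, and some genes of those other lists are not reported here. In R 4.3.3, limma 3.58.1 with a variance trend compared log2(normalized count + 1) between the groups over the 15989 genes with a mean of at least 10, and p values were adjusted by the Benjamini-Hochberg method over all of them. A gene was called at an unadjusted p under 0.05 and more than 1.3-fold change. Fold changes on this scale understate changes of low genes. A limma p value sets the group difference against the spread between these mice, with variances moderated over all genes. Replicates differed beyond sampling noise. Depth was 23031880 to 45117528 reads. The scripts were tested on simulated counts.

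Genes with each mouse's value are those called, those without overlap, chains or copies, and the leader of each role group. *C9* was added because another setting called it, and *Fcna*, *Cfp*, *C1ra*, *C2*, *C3ar1*, *Cfhr2* and *Colec12* after their values were seen. Alternatives were pseudocounts 0.5 and 5, no filter, TMM scaling, equal totals with and without the 13 mitochondrial genes, no trend, no fold threshold, edgeR 4.0.16 and DESeq2 1.42.0 on recovered reads, a replicate block, and each mouse left out. Coding lengths and shared 50-base words came from GENCODE M21 (GRCm38), and promoters from RefSeq (GRCm38.p6), with 38 of 48 genes matched.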

Additional observations from a re-analysis of the deposited data

Results flagged for a closer look

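In 8 of the 96 groups of 4 mice (48 genes in 2 groups), 1 mouse lay so far from its 3 group mates that the gap to its nearest neighbour took more of the group's range on the log2 scale than Dixon's 95% critical value. Chance gives about 1 in 20, or 4.8 of 96. In 5 of the 8 the mouse was AF1 peptide replicate 1. It was the highest of its group in *C3* (0.837 of the range), *C8b* (0.873) and *F7* (0.855), and the lowest in *C1qb* (0.845) and *C1qc* (0.904). Among these 5 flagged genes, the hepatocyte-made and the macrophage-made ones thus lay on opposite sides of the group. This did not hold for all hepatocyte-made genes. Of the 19 hepatocyte-made complement genes, AF1 peptide replicate 1 was the highest of the 8 mice in 6 and the lowest in 4 (*C1ra*, *C1s1*, *C4a* and *Cfb*).

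In the other 3, control replicate 3 was the lowest in *Cfi* (0.854) and *C4bp* (0.833), both inhibitors, with 5825 against 7083 to 7325 and 4832 against 5852 to 6082 normalized counts. AF1 peptide replicate 4 was the lowest in *Proc* (0.846), with 16193 against 17768 to 18072.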

How the results depend on the processing

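Of the 48 genes, 1 (*C8a*) was called. It was 0 with equal totals outside mitochondrial genes and with limma without the trend, 2 with DESeq2 on recovered reads (*C8a* and *C3*), and 1, but *C1qc* in place of *C8a*, with equal totals. With 1 mouse left out it was 0 to 3. It was 0 without control replicate 1, 2 or 4 or AF1 peptide replicate 2 or 4, 2 (*C9*, *Hrg*) without AF1 peptide replicate 3, and 3 (*C8a*, *Fga*, *Fgg*) without AF1 peptide replicate 1. Of all genes tested, these fits called 3.41%, 4.19%, 3.88% and 4.53% (settings with all mice, in the order given) and 2.32 to 5.93% with 1 mouse left out (4.35% without AF1 peptide replicate 3), so that the counts of 0 to 3 of 48 were near or under these shares. DESeq2 without AF1 peptide replicate 1, chosen after seeing the data, also called 3 (5.37% of all genes), with adjusted p values of 0.0981 or more. DESeq2 gave *C8b* no p value.

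The median log2 fold change of the hepatocyte-made complement genes was −0.085 with equal totals, a shift shared by all genes, which moved their median from −0.01 to −0.10, and the number of the 48 genes above 0 from 28 to 16. With 1 mouse left out the medians ranged from −0.02 to 0.06 (complement), −0.09 to 0.10 (coagulation) and −0.63 to 0.02 (macrophage-made).

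With the replicate number as a block (replicate block), 2 genes were called, *C8a* and *C1qc*, beside 4.58% of all genes. Same-numbered mice deviated together with correlations of 0.235, 0.0238, 0.217 and −0.064 over genes, and 4 of the 8 mice correlated best with their own number, so the numbers were not taken to pair the mice.

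Of the 26 named genes, 16 kept their sign under every alternative. With equal totals, signs changed in *Mbl1* (−0.086), *Mbl2* (−0.083) and *C4b* (−0.050), and *Fgb* was 0.0063 with edgeR and 0.011 with DESeq2. With 1 mouse left out, ranges that crossed 0 were −0.38 to 0.10 (*C1s1*), −0.083 to 0.098 (*Mbl1*), −0.17 to 0.17 (*Mbl2*), −0.12 to 0.050 (*C4a*), −0.020 to 0.12 (*C4b*), −0.089 to 0.058 (*C8g*), −0.89 to 0.019 (*C5ar1*), −0.16 to 0.089 (*Fgb*) and −0.092 to 0.37 (*F7*). DESeq2 without AF1 peptide replicate 1 gave 0.11 (*C1s1*), −0.14 (*Mbl2*), 0.051 (*C4a*), 0.0017 (*C1qa*), 0.099 (*C5ar1*) and −0.089 (*F7*). The causes were not tested. Depth limited *C5ar1*, *C3ar1* and *Cfd*, at 5 to 15 reads in AF1 peptide replicate 1.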
